A study of Danio rerio with 6 samples.

Results

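Open chromatin near the ends of the chromosomes was examined in sorted zebrafish heart muscle cells. The members were the ATAC-seq peaks whose midpoint lay within 2000000 bp of either end of a chromosome, on chromosomes 1 to 25 without chromosome 4, and the far end of a chromosome was taken as the last base of any peak called on it. They numbered 10156 of the 96855 peaks on these 24 chromosomes, and of the 101999 peaks in all 6 deposited lists. The other peaks on the same chromosomes, called interior here, were the comparison. The 3 wt1b-overexpressing libraries (wt1b_OE) carried Tg(eGFP:5xUAS:wt1b; gcryst:cerulean)cn15, and the 3 control libraries carried Tg(eGFP:5xUAS:RFP; gcryst:cerulean)cn15, in which the red fluorescent protein RFP takes the place of wt1b. All 6 also carried the driver Tg(myl7:Gal4)cbg2Tg, in which the promoter of myl7, a myosin light chain gene of heart muscle, drives the yeast activator Gal4, and Gal4 switches on GFP with wt1b or RFP through its UAS sites. The sorted cells were GFP-positive, of strain AB, labelled as cardiomyocytes and taken at 5 days after fertilisation. No reference in the coordinates of the files was used, so genes, sequences and the defining markers of heart muscle were not analysed here, and the label was taken as given.

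In ATAC-seq the transposase Tn5 inserts adapters into DNA that is not covered by packed nucleosomes, and a peak is a stretch with many insertions. wt1b is a zebrafish gene for WT1, a zinc-finger transcription factor known from the kidney and from the outer layer of the heart. Chromosomes end in telomere repeats, and the sequence next to them, the subtelomere, is in many species rich in duplicated segments and repeats, which short reads can be hard to place in. Subtelomeres are often studied for silent chromatin, yet they can also hold many genes.

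The lists differed in length. On the 24 chromosomes there were 9050, 3968 and 3954 peaks in wt1b_OE replicates 1, 2 and 3, against 28811, 28500 and 22572 in control replicates 1, 2 and 3. The end windows held 1019, 410 and 483 of these in wt1b_OE and 2790, 3175 and 2279 in control libraries, a mean of 637 ± 333 and 2748 ± 449 (SD, n = 3 each), without overlap (exact two-sided permutation p = 0.1, the smallest that 3 libraries against 3 allow). In lists cut to the strongest 3954 peaks by score times width, the end windows held 477, 406 and 483 peaks in wt1b_OE and 478, 548 and 423 in control libraries, which overlap. Read depth is unknown, and the score of a peak is limited to 1000, so values were compared as shares, or end against interior within the same list. In bulk libraries, a site open in fewer cells and a site less open in each cell cannot be told apart. Nothing in the labels says that the replicates came from separate clutches, so p-values measure the spread between these libraries, which may be technical.

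Peaks were denser near chromosome ends than in the interior in every library. The end windows made up 96 Mb, or 7.58% of the sequence, and held 11.3%, 10.3% and 12.2% of the peaks of the wt1b_OE lists, against 9.68%, 11.1% and 10.1% of those of the control lists. In wt1b_OE libraries there were 10.6, 4.27 and 5.03 peaks per Mb at the ends, and 6.86, 3.04 and 2.97 per Mb in the interior. In control libraries there were 29.1, 33.1 and 23.7 peaks per Mb at the ends, and 22.2, 21.6 and 17.3 per Mb in the interior. The density at the ends was thus 1.55 ± 0.146 times that of the interior in wt1b_OE and 1.40 ± 0.114 times in control libraries (SD, n = 3 each). Over the 6 libraries the log2 ratio averaged 0.56 ± 0.14 (SD, n = 6) and was positive in 6 of 6. The exact two-sided sign-flip permutation test over libraries gave p = 0.031, the smallest value that 6 libraries allow. It was 0.0375 after Benjamini-Hochberg adjustment over the 6 end-against-interior measures tested. These 6 include the value for the outermost 500 kb, which was added after seeing the data.

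The excess was shared by most chromosomes and by both of their ends. The ends were denser than the interior of the same chromosome on 23, 18 and 21 of the 24 chromosomes in wt1b_OE replicates 1, 2 and 3, and on 23, 23 and 22 in control replicates 1, 2 and 3. Low-coordinate ends had 1.56, 1.54 and 1.73 times the interior density in the wt1b_OE lists and 1.34, 1.54 and 1.35 times in the control lists. High-coordinate ends had 1.53, 1.27 and 1.67 times in the wt1b_OE lists and 1.27, 1.52 and 1.39 times in the control lists. The excess was present in weak and strong peaks alike. With the peaks of a list sorted into 4 equally large strength classes by score times width, the end density was 1.27 to 1.83 times the interior in the weakest class and 1.47 to 1.77 times in the strongest class over the 6 libraries.

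The excess was largest in the outermost 500 kb. In the outermost 100 kb the density was 4.65, 5.21 and 5.83 times that of the interior in wt1b_OE replicates 1, 2 and 3, and 2.69, 3.57 and 3.27 times in control replicates 1, 2 and 3. These values rest on 153, 76 and 83 peaks in the wt1b_OE lists and 287, 371 and 272 in the control lists. High-coordinate ends were set by the last peak base, so a peak lies at each of them by definition. The separation of the groups was present in the full lists and not in lists of the strongest 3954 peaks. Ranked by score times width, the values were 5.82, 5.22 and 5.83 times in wt1b_OE and 3.58, 6.44 and 4.07 times in control replicates 1, 2 and 3. Ranked by score and then width, they were 4.99, 5.23 and 5.83 times in wt1b_OE and 6.02, 6.05 and 5.04 times in control replicates. Between 100 and 250 kb the full lists had 2.82 ± 0.313 times in wt1b_OE and 2.39 ± 0.320 times in control libraries, and between 250 and 500 kb 2.48 ± 0.434 and 1.89 ± 0.225 times (SD, n = 3 each). From 500 to 1000 kb it was 1.07 ± 0.151 times in wt1b_OE and 1.30 ± 0.132 times in control libraries. Just inside the 2 Mb border, from 1500 to 2000 kb, it was 0.603 to 0.826 times in wt1b_OE and 0.812 to 0.938 times in control libraries. Just outside it, from 2000 to 2500 kb, it was 0.877 to 1.03 times and 0.784 to 0.961 times. The mark of 500 kb was chosen after these values were seen. As a description, the log2 ratio of end to interior density was 0.08 with the outermost 500 kb left out, positive in 5 of 6 libraries. Within the outermost 500 kb the log2 ratio to the interior averaged 1.52 at low-coordinate ends and 1.30 at high-coordinate ends over the 6 libraries.

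**Figure D1:**
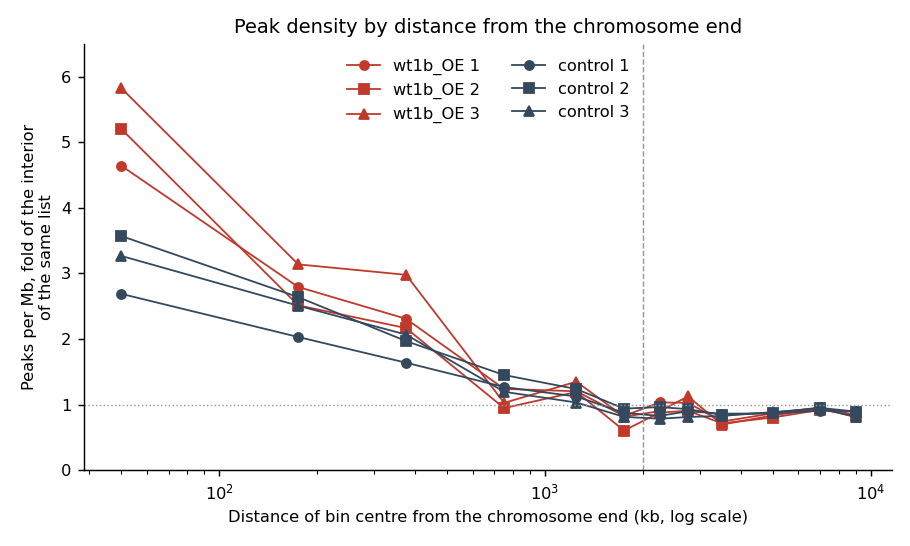
Peak density by distance from the nearer chromosome end, as fold of the interior density of the same list; the x axis is the distance of each bin's centre in kb on a log scale, each line is a library, the dashed line marks the 2 Mb border and the dotted line a fold of 1. The 6 lines stand between 2.69 and 5.83 in the outermost 100 kb, with the 3 wt1b_OE lines above the 3 control lines in these full lists, an order not kept in lists of equal size, and average 1.07 in wt1b_OE and 1.30 in control libraries between 500 and 1000 kb.

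The density excess over the whole end windows was not distinguishable between the groups. The log2 ratio was 0.63 ± 0.14 in wt1b_OE and 0.48 ± 0.12 in control libraries (SD, n = 3 each), with overlapping ranges (difference 0.14, exact two-sided permutation p = 0.2). In the outermost 500 kb the full lists did not overlap. The density there was 2.92, 2.88 and 3.60 times the interior in wt1b_OE replicates 1, 2 and 3, and 1.97, 2.49 and 2.44 times in control replicates 1, 2 and 3, a log2 difference of 0.45 (exact permutation p = 0.1; 0.2 after Benjamini-Hochberg adjustment over 6 group comparisons). The mark of 500 kb was chosen after values of these same lists were seen, so p-values for the outermost 500 kb are a description only. The 6 group comparisons include this one. The groups also differ in list length. In the lists of the strongest 3954 peaks by score times width, the values were 3.42, 2.87 and 3.60 times in wt1b_OE and 2.89, 4.21 and 3.04 times in control libraries. The ranges then overlapped, and the log2 difference was -0.02 (exact permutation p = 0.9). With ranking by score and then width, it was -0.15 (exact permutation p = 0.2). In all 3 control libraries and in wt1b_OE replicate 1, the excess in the outermost 500 kb was larger among the strongest peaks than in the full list. This held under both rankings. The lists of wt1b_OE replicates 2 and 3 had 3968 and 3954 peaks, so the cut changed them little or not at all.

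**Figure D2:**
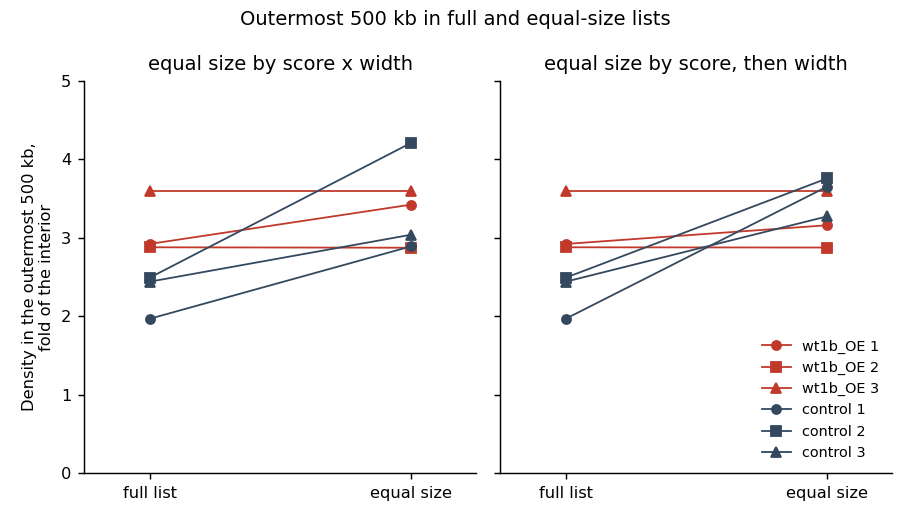
Density in the outermost 500 kb as fold of the interior density, in full lists and in lists of the strongest 3954 peaks of each library, ranked by score times width (left) or by score and then width (right); each line is a library. The wt1b_OE values lie between 2.87 and 3.60 in every panel, and the control values between 1.97 and 2.49 in full lists and between 2.89 and 4.21 in equal-size lists. The full lists of wt1b_OE replicates 2 and 3 have 3968 and 3954 peaks, so the cut changes them little or not at all. Replicate 1 of wt1b_OE moved from 2.92 to 3.42 (left) and 3.16 (right).

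The 48 chromosome ends varied among themselves. Their share of the list, averaged over the 6 libraries, ran from 0.124% to 0.329% with a median of 0.226%, against a median of 0.144% over 575 interior windows of the same 2 Mb. Of the 48 ends, 46 lay above the median of all 623 windows and 21 were among the 62 fullest windows. The fullest end was the high end of chromosome 20, with 35, 21 and 17 peaks in wt1b_OE replicates 1, 2 and 3, and 56, 69 and 43 in control replicates 1, 2 and 3. That is 0.387%, 0.529% and 0.430% of the wt1b_OE lists and 0.194%, 0.242% and 0.191% of the control lists, so every wt1b_OE library gave this end a larger share than any control library. The low end of chromosome 22 followed, with 0.387% ± 0.0390 of the wt1b_OE lists and 0.261% ± 0.0738 of the control lists (SD, n = 3 each), without overlap. The high end of chromosome 6 was the next, with 0.336% ± 0.0518 and 0.284% ± 0.0642, and there the groups overlapped.

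At the emptiest ends the order of the group means was the other way round. The fullest and emptiest ends were ranked by a mean that includes the shares of both groups. Interior windows of similar rank were not compared, so this order shows nothing particular to the ends. The high end of chromosome 9 held 9, 1 and 4 peaks in wt1b_OE replicates 1, 2 and 3, and 60, 42 and 37 in control replicates 1, 2 and 3, or 0.0753% ± 0.0434 of the wt1b_OE lists and 0.173% ± 0.0315 of the control lists (SD, n = 3 each). The high end of chromosome 7 had 0.0863% ± 0.0552 and 0.214% ± 0.00524. The high end of chromosome 2 had 0.0805% ± 0.0749 and 0.204% ± 0.0626, with overlapping groups. Across the 48 ends, the mean wt1b_OE share and the mean control share had a Spearman correlation of 0.458, as a description of ends that share libraries and sequence.

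In all, the share of the list did not overlap between the groups at 14 of the 48 ends (29.2%), against 32.9% of all 2 Mb windows. The wt1b_OE share was the higher at 9 ends (18.8%), where 12.5% of all windows had this pattern, and the lower at 5 ends (10.4%), where 20.4% did. Besides those above, the 9 included both ends of chromosome 10, the low ends of chromosomes 7, 14 and 15 and the high ends of chromosomes 17 and 21. The 5 were the low ends of chromosomes 6 and 17 and the high ends of chromosomes 7, 8 and 9. No end passed a threshold of 0.05, since the smallest exact permutation p was 0.1 and the smallest after Benjamini-Hochberg adjustment over all 623 windows was 0.304. Among the strongest 3954 peaks by score times width, 1 end was higher and 3 were lower in wt1b_OE libraries (2.08% and 6.25% of the ends), where 4.01% and 4.33% of all windows had these patterns.

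**Figure D3:**
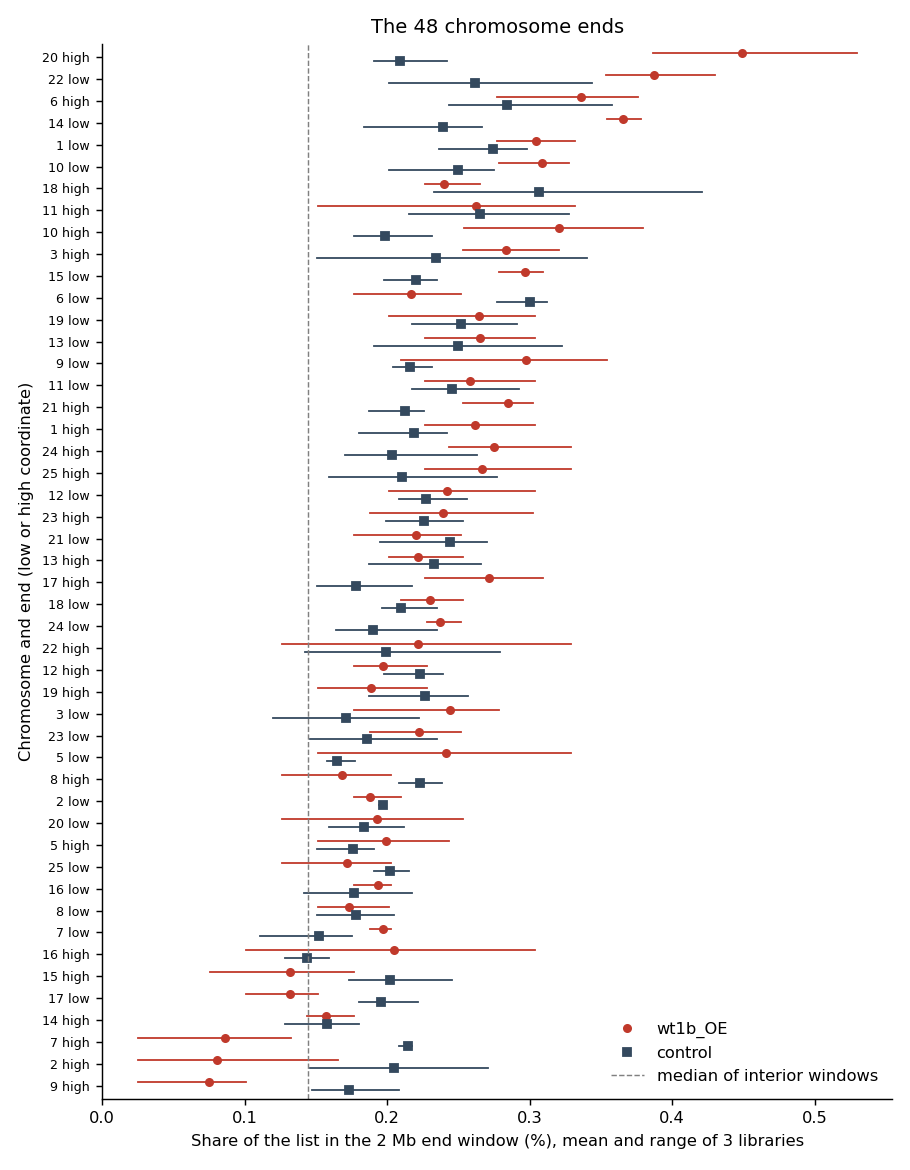
Share of each list (x axis, %) in the 2 Mb window at each of the 48 chromosome ends (y axis, chromosome and low- or high-coordinate end), in order of the mean over 6 libraries; points are means and lines the range of 3 libraries per group, and the dashed line is the median of the interior windows, 0.144%. The high end of chromosome 20 stands at the top with 0.449% of the wt1b_OE lists, and the high end of chromosome 9 at the bottom with 0.0753%.

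Over the whole end windows, end peaks were about as wide as interior peaks. The median width was 415, 416 and 439 bp at the ends and 418, 415 and 450 bp in the interior in wt1b_OE replicates 1, 2 and 3. In control replicates 1, 2 and 3 it was 395, 371 and 439 bp at the ends and 415, 369 and 464 bp in the interior. The difference averaged -9.33 ± 11.3 bp (SD, n = 6) and was negative in 4 of the 6 libraries (exact sign-flip permutation p = 0.16), and its spread between libraries exceeded it. With the outermost 500 kb left out, a choice made after seeing the data, the difference was -16.5 bp, and in the stronger 50% of each list it was 0.917 bp. Peaks of 1500 bp or more were rare in both places. In wt1b_OE replicates 1, 2 and 3 they were 7, 3 and 0 end peaks, or 0.687%, 0.732% and 0%. Their interior shares there were 0.486%, 0.562% and 0.663%. In control replicates 1, 2 and 3 they were 5, 8 and 6 end peaks, or 0.179%, 0.252% and 0.263%. The interior shares there were 0.215%, 0.201% and 0.222%. Peaks under 200 bp made up 8.05%, 12.0% and 8.28% of the end peaks in wt1b_OE replicates 1, 2 and 3, and 5.54%, 7.93% and 6.37% of the interior peaks. In control replicates 1, 2 and 3 these shares were 7.13%, 8.22% and 4.30% at the ends and 3.96%, 7.14% and 3.18% in the interior, so narrow peaks were the more frequent at the ends in all 6 libraries. Every peak this narrow had the limiting score, since peaks below the limit had a score times width / 1000 of at least 199.798.

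In the full lists, end peaks reached the score limit more often than interior peaks. In wt1b_OE replicates 1, 2 and 3, 46.2%, 37.6% and 35.8% of the end peaks had a score of 1000, against 42.3%, 35.8% and 35.3% of the interior peaks. In control replicates 1, 2 and 3 the shares were 30.1%, 40.9% and 29.0% at the ends and 19.4%, 34.8% and 23.9% in the interior. The difference was 4.70 ± 3.60 percentage points (SD, n = 6), positive in 6 of 6 libraries (exact sign-flip permutation p = 0.031; 0.0375 adjusted). It was 2.08 ± 1.74 points in wt1b_OE and 7.32 ± 2.96 points in control libraries (SD, n = 3 each), without overlap (exact permutation p = 0.1; 0.2 adjusted). Peaks under 200 bp, all at the limit, averaged 9.43% of the end and 6.61% of the interior peaks in wt1b_OE libraries. In control libraries they averaged 6.55% and 4.76%. Their part in the difference was not tested. In the stronger 50% of each list the difference over the 6 libraries was 1.20 points (exact sign-flip permutation p = 0.66). This mean joined opposite signs, -3.63 points in wt1b_OE and 6.02 points in control libraries (exact permutation p = 0.1 between groups). With lists of equal size by score times width the difference over the 6 libraries was 0.906 points (p = 0.34, exact sign-flip permutation). It was 1.11 points in wt1b_OE and 0.707 points in control libraries. The median of score times width differed little: over the 6 libraries the log2 ratio of end to interior was 0.03 ± 0.02 (SD, n = 6; exact sign-flip permutation p = 0.031), and the true strength of peaks at the limit is not recorded.

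**Figure D4:**
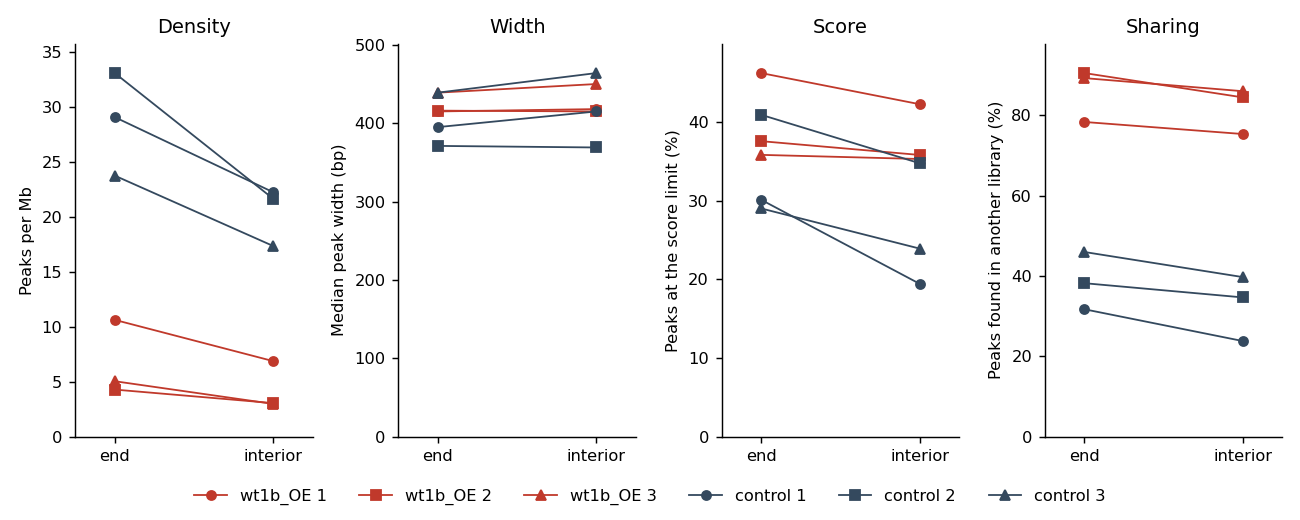
End and interior values of each library, joined by a line, for peaks per Mb, median peak width in bp, the share of peaks at the score limit in % and the share overlapping a peak of another library in %. Density, score and sharing are higher at the ends in all 6 libraries, and the median width is higher at the ends in 2.

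In the full lists, peaks at the ends overlapped a peak of another library more often than interior peaks. In wt1b_OE replicate 1, 78.3% of the end peaks overlapped another library by at least 1 bp, against 75.3% of the interior peaks. The exact Clopper-Pearson 95% interval of the end share, 75.7% to 80.8%, holds counting error only. In wt1b_OE replicates 2 and 3 the shares were 90.5% and 89.2% at the ends, against 84.4% and 86.0% in the interior. In control replicates 1, 2 and 3 they were 31.7%, 38.2% and 45.9% at the ends, against 23.8%, 34.6% and 39.7% in the interior. The difference was 5.01 ± 2.02 percentage points (SD, n = 6), positive in 6 of 6 (exact sign-flip permutation p = 0.031, 0.0375 adjusted). An overlap counts for both libraries that it joins. The 6 values are therefore not independent, and the p-values for sharing can overstate the evidence. In the stronger 50% of each list it was 2.23 points, positive in 5 of 6 libraries (exact sign-flip permutation p = 0.0625). In lists of equal size by score times width the difference was positive in 5 of 6 libraries (exact sign-flip permutation p = 0.22). It averaged 5.03 points in wt1b_OE and -0.455 points in control libraries. By score and then width it was positive in 2 of 6 (exact sign-flip permutation p = 0.69), with averages of 3.33 and -5.42 points. Peaks covered more of the sequence at the ends, 0.192% to 0.490% in wt1b_OE and 1.12% to 1.36% in control libraries, against 0.137% to 0.314% and 0.855% to 0.981% of the interior. More covered sequence offers more chance overlap, and its part in the sharing was not tested. With a reciprocal overlap of 50% required in the full lists, the difference in sharing was 2.33 points, positive in 6 of 6 libraries (exact sign-flip permutation p = 0.031). It was 1.47 points in wt1b_OE and 3.19 points in control libraries.

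On average, the difference in sharing was largest in the weakest strength class, as ranked by score times width. That class holds all peaks under 200 bp, which have the limiting score and were more frequent at the ends. Their true strength is not recorded, and their part in the difference was not tested. In the weakest of the 4 strength classes, 62.1%, 90.5% and 82.9% of the end peaks of wt1b_OE replicates 1, 2 and 3 were shared, against 59.0%, 73.9% and 74.9% of the interior peaks. In that class of control replicates 1, 2 and 3, 23.9%, 29.3% and 31.8% of the end peaks were shared, against 16.4%, 23.3% and 23.8% of the interior peaks. The difference averaged 8.21 points in this class and was positive in 6 of 6 libraries. In the strongest class it averaged 1.53 points and was positive in 4 of 6. The classes were not tested against each other. Sharing also moved with distance. In the outermost 100 kb, 91.2% ± 6.64 of the wt1b_OE peaks and 51.5% ± 6.26 of the control peaks were shared (SD, n = 3 each), and from 1500 to 2000 kb 81.4% ± 8.01 and 27.9% ± 7.98.

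Across the groups, 76.7%, 88.5% and 86.1% of the end peaks of wt1b_OE replicates 1, 2 and 3 had an overlap with 1 or more control libraries, against 73.6%, 81.6% and 83.7% of their interior peaks. The difference was 4.17 ± 2.41 points (SD, n = 3), positive in 3 of 3 (exact sign-flip permutation p = 0.25, the smallest that 3 libraries allow). Of the end peaks of the control libraries, 19.3% to 29.5% overlapped a wt1b_OE peak, against 14.8% to 25.4% of their interior peaks. This difference was 3.48 ± 1.40 points, positive in 3 of 3 (exact sign-flip permutation p = 0.25). It turned to -1.92 points at equal list size by score times width and to -5.19 points by score and then width.

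Overlapping peaks of the 6 lists were merged into 68809 regions, of which 6788 had their midpoint in an end window. Of the end regions, 143 (2.11%, exact Clopper-Pearson 95% interval 1.78% to 2.48%, counting error only) were called in all 6 libraries, against 1.81% of all regions. This order did not hold at equal list size by score times width, where 56 of 1474 end regions (3.80% of them) were called in all 6 libraries, against 4.04% of all regions. In the full lists such regions occurred at 1.49 per Mb at the ends and 0.943 per Mb in the interior, and 45 of the 48 ends had at least 1. In the outermost 100 kb there were 34 such regions, or 7.08 per Mb, and 4.99% of the regions there were called in all 6 libraries. From 1500 to 2000 kb there were 0.583 per Mb, fewer than in the interior. Regions called in a single library made up 79.7% of the end regions and 83.3% of the interior regions.

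**Figure D5:**
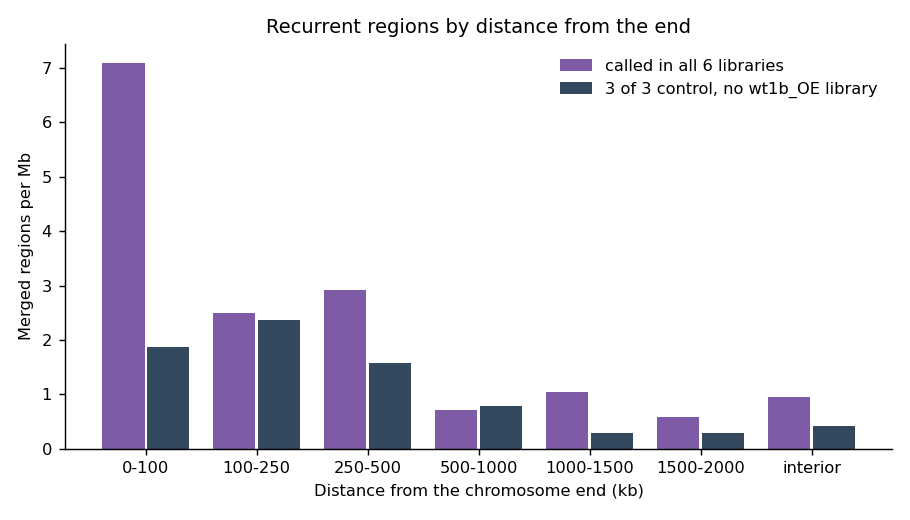
Merged regions per Mb of sequence (y axis) by distance of the region's midpoint from the chromosome end in kb (x axis), with the interior at the right; bars show regions called in all 6 libraries and regions called in 3 of 3 control and no wt1b_OE libraries. The first kind stands at 7.08 per Mb in the outermost 100 kb and at 0.943 per Mb in the interior.

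The strongest of the regions called in all 6 libraries were chosen by the mean percentile of their best peak within each list, ranked by score times width, with positions counted from 1 in GRCz11. The region at chr10:422486-424234 had a mean percentile of 99.2, with peaks 1533, 1447 and 1421 bp wide in wt1b_OE replicates 1, 2 and 3, and 1477, 1737 and 1448 bp wide in control replicates 1, 2 and 3. Its scores were 1000, 911 and 612 in the wt1b_OE lists and 1000 in each control list. At chr20:55166193-55167424, 2.16 kb from the last peak base of the chromosome, the score was 1000 in all 6 libraries and the widths were 1152, 992 and 1093 bp in wt1b_OE and 1149, 1000 and 969 bp in control replicates. This region lies in the fullest of the 48 ends. At chr8:9845-11673, 10.8 kb from the start of the chromosome, the widths were 1332, 788 and 1065 bp in wt1b_OE and 1679, 1526 and 994 bp in control replicates. The other 2 were chr6:58914894-58916736 and chr22:335200-336611, with mean percentiles of 97.4 and 97.3. Both lie in ends that are among the 3 fullest.

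Regions called in 3 of 3 control and no wt1b_OE libraries numbered 78 at the ends (1.15% of the end regions, interval 0.909% to 1.43%), against 0.811% of all regions. They were spread over 37 of the 48 ends, at 0.813 per Mb at the ends and 0.410 per Mb in the interior. Their density was 1.88, 2.36 and 1.58 per Mb from 0 to 100, 100 to 250 and 250 to 500 kb, and 0.292 per Mb from 1500 to 2000 kb. The count moved with the lists used. At equal list size by score times width, 10 of 1474 end regions had the pattern (0.678%), against 0.27% of all regions. With reciprocal overlap of 50% in full lists 47 end regions had it, and the share over all regions was not computed under that rule. Without wt1b_OE replicate 1, 2 or 3 the count was 147, 85 or 86, since fewer libraries then had to lack the region. Without control replicate 1, 2 or 3 it was 263, 170 or 226, since fewer libraries then had to call the region.

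Both ends of chromosome 24 carried the best-ranked of these regions. At chr24:66090-67156 the peaks of control replicates 1, 2 and 3 were 445, 1067 and 669 bp wide with scores of 1000, 998 and 818, and the mean percentile was 92.9. At chr24:42072727-42073307 they were 485, 581 and 575 bp wide with a score of 1000 in each, and the mean percentile was 92.2. The other 3 were chr9:1539737-1540439, chr5:1797673-1798339 and chr10:45279962-45281338, with mean percentiles of 91.2, 90.4 and 90.0.

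No end region was called in 3 of 3 wt1b_OE and no control libraries, a pattern held by 6 of all 68809 regions (0.00872%). In 2 of 3 wt1b_OE and no control libraries, 18 end regions were called (0.265%), against 0.212% of all regions. Of these, chr1:44063-44648, in wt1b_OE replicates 1 and 3, had the highest mean percentile, 63.2, and it is named although it was chosen after its values were seen. Regions with any wt1b_OE and no control peak numbered 330 at the ends (4.86%), against 5.07% of all regions. At equal list size by score times width, 16 of the 1474 end regions were called in 3 of 3 wt1b_OE and no control libraries (1.09%), against 0.944% of all regions.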

How the data were processed

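ATAC-seq peak lists of 3 wt1b_OE and 3 control libraries were analysed, 1 list per library, so replicates were not pooled. The authors deposited the sequence, start, end, name and a whole-number score of each peak, without a header. The score is that of the authors' peak caller, from 187 to 1000. Per the submitters' processing notes, Bowtie2, Genrich and other tools were used with GRCz11, with no role, version or filter given, and the depth per library is unknown. Peaks below the limit had a score times width / 1000 of at least 199.798, so weaker peaks are not in the lists.

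Libraries were grouped by title. Python 3.11.15 with numpy, pandas and scipy was used. An overlap of 1 bp counted as sharing. End and interior values were compared within a library by exact sign-flip permutation over libraries, and groups by exact permutation of 3 against 3 libraries, all two-sided. Interior windows of 2 Mb and merged regions gave the background shares. Named regions were the 5 with the best mean percentile in each class (all 6, control only, wt1b_OE only), and named ends the 3 fullest and 3 emptiest. The members and lists were chosen with earlier results of these data known. The planned gene-start share and GC content needed a genome or annotation in GRCz11 coordinates and were not run. Alternatives covered window size, list size, overlap rule, chromosome 4 and omitted libraries; the value for the outermost 500 kb, and its omission, were added after seeing the data. Functions were tested on simulated data and against bedtools.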

Additional observations from a re-analysis of the deposited data

How the results depend on the processing

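Of the end-against-interior values recomputed under other settings, 140 of 146 kept their direction, as did 102 of 112 group differences. These totals include the settings without 1 library, in which density, score limit and strength, positive in all 6 libraries, could not turn. As means over libraries, the density ratios of the end windows and of the outermost 500 kb kept their direction in every setting run. Without the outermost 500 kb, the ratio of the end windows was near that of the interior, as given below. Leaving out 1 library at a time gave log2 density ratios of 0.51 to 0.59 for the end windows and 1.330 to 1.504 for the outermost 500 kb, 3.50 to 5.53 points for the score limit, 0.0281 to 0.0377 for log2 strength (score times width) and 3.80 to 5.21 points for sharing. Each of these had an exact sign-flip permutation p of 0.0625, the smallest that 5 libraries allow. Apart from sharing, this p was fixed in advance by the same sign in all 6 libraries, so it adds no support. Regions called in all 5 remaining libraries then numbered 143 to 206. Control-only and wt1b_OE-only regions, defined on the libraries left, numbered 85 to 263 and 0 to 11 (11 without wt1b_OE replicate 2). Ends without overlap of the groups numbered 17 to 21. With 1 library fewer these patterns are easier to meet, so the counts do not measure the stability of those from all 6 libraries. Except at equal list size by score times width, shares over all regions or windows were not computed for the other settings. The counts given here and below for those settings therefore do not compare the ends with the interior.

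Without the outermost 500 kb, the density ratio was 0.0824 (log2), positive in 5 of 6 libraries (exact sign-flip permutation p = 0.22). The width difference was then -16.5 bp, positive in 0 of 6 libraries (exact sign-flip permutation p = 0.031, as a description). The score-limit difference was 2.83 points, log2 strength -0.00093 and sharing 1.88 points. The group differences turned to -0.11 for density and 1.43 points for sharing, and 56 regions of all 6 libraries and 33 control-only regions were left. In the stronger 50% of each list, these were 0.917 bp for width, 1.20 points for the limit, 0.0280 for strength and 2.23 points for sharing, with 71, 42 and 9 for regions of all 6, control-only regions and ends without overlap. The limit difference there was -3.63 points in wt1b_OE and 6.02 points in control libraries.

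At equal list size by score times width, the limit difference was 0.906 points, strength 0.0120 and sharing 2.29 points. The group differences were -0.093 for density, -0.0214 for the outermost 500 kb, 0.398 points for the limit and 5.48 points for sharing, and control peaks found in wt1b_OE lists differed by -1.92 points. Regions of all 6, control-only, wt1b_OE-only and ends without overlap numbered 56, 10, 16 and 4. Ranked by score and then width, these values were 0.406, -0.0036, -1.04, -0.19, -0.15, 0.812, 8.75 and -5.19, and the counts 60, 7, 18 and 7. Under the second ranking the control lists hold peaks at the score limit alone, so their limit difference is 0 by construction. The cause of the other changes was not tested. Read depth is unknown, so what depth limits could not be assessed.

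High ends alone gave 3.88 points for the limit (p = 0.0625, exact sign-flip permutation), 68 regions of all 6, 43 control-only regions and 7 ends without overlap, and low ends alone 75, 35 and 7. Equal weight per chromosome gave 4.60 points for the limit and 0.0397 for strength. Strength was 0.0194 without the outermost 100 kb, where 9 ends did not overlap, and 0.02 against the middle 50% of the chromosomes. Windows of 4 Mb gave 218, 118 and 1 for regions of all 6, control-only and wt1b_OE-only, and reciprocal overlap 47 control-only and 1 wt1b_OE-only. With the replicate number as a replicate block, the end peak count differed by -2111 (exact sign-flip permutation p = 0.25, the smallest possible). At 23 of the 48 ends all 3 pairs differed one way. The share of all windows with this pattern was not computed, so the count shows nothing particular to the ends. Deviations of same-numbered libraries from their group means over the 48 ends correlated at 0.023, 0.147 and 0.188, and 3 of 6 libraries correlated best with their own number, so the numbers were not taken as pairs.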

Other observations

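The ends of chromosome 4 stand outside the members. Its low end held 29, 9 and 8 peaks in wt1b_OE replicates 1, 2 and 3, and 64, 79 and 41 in control replicates 1, 2 and 3, or 0.191% to 0.307% of the wt1b_OE lists and 0.173% to 0.263% of the control lists over all sequences. Its high end, on the long arm, held 12, 9 and 4 peaks in the wt1b_OE lists and 69, 66 and 45 in the control lists, or 0.0955% to 0.214% and 0.190% to 0.227%. Neighbouring peaks stood closer at the ends of the 24 chromosomes than in the interior. The median gap was 35.9, 69.7 and 64.1 kb at the ends and 61.8, 157.1 and 157.7 kb in the interior in wt1b_OE replicates 1, 2 and 3. In control replicates 1, 2 and 3 it was 17.4, 13.4 and 17.9 kb at the ends and 26.8, 25.9 and 31.2 kb in the interior.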
